A study of Mus musculus with 2 samples.

Results

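Mature dendritic cells (DCs) of the distant MC38 tumor were chosen by their own transcripts, as barcodes with at least 1 unique molecular identifier (UMI, a counted mRNA molecule) of Ccr7 and at least 1 of Fscn1, no UMI of Cd3d, Cd3e or Cd3g, and fewer than 10 UMIs of C1qa, C1qb and C1qc together. The rule found 55 cells among 19950 barcodes that had 200 or more genes and no more than 10% of their UMIs from mitochondrial genes, 28 of them in the MWA library and 27 in the MWA+TIGIT library. MC38, a mouse colon carcinoma line, was grown under the skin of both flanks of male C57BL/6 mice of 6 to 8 weeks, and microwave ablation (MWA) was given to the right tumor at about 300 mm3. The MWA group also got an isotype control antibody, and the MWA+TIGIT group an antibody that blocks TIGIT, an inhibitory receptor of T cells and NK cells, injected every 3 days from day 1 after MWA. On day 8 the left tumor, which was not ablated itself, was taken from both groups, and its CD45+ cells, that is, all leukocytes, were sorted and sequenced from the 3′ end in droplets. There was 1 library per group and the number of mice behind each is not given in the sources used here, so no difference between the groups has a replicate check, no p-value is given, and treatment, mice and library cannot be told apart. All intervals below are 95% intervals that cover counting error only.

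When a DC has taken up antigen and has been activated, it lowers its uptake receptors, raises the receptor CCR7 and the actin-bundling protein fascin, and moves along CCL19 and CCL21 gradients to the lymph node. In tumors such cells, whatever DC type they come from, are known for a shared program of NF-kB genes, costimulatory molecules, the checkpoint ligand PD-L1, the chemokines CCL17 and CCL22, which attract CCR4+ T cells, and, in some of the cells, the interleukin 12 subunit p40, which is encoded by Il12b. DCs are also among the cells that can carry the ligands of TIGIT, which are encoded by Pvr and Nectin2.

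The 28 cells of the MWA library held 155474 UMIs, with a median of 5625 and a range of 598 to 9099 per cell, and the 27 cells of the MWA+TIGIT library held 191757 UMIs, with a median of 6633 and a range of 2244 to 16568. Gene levels are UMIs summed over these cells per 1000000 UMIs (CPM), so that a count of 0 allowed up to 19.3 CPM in MWA and up to 15.6 CPM in MWA+TIGIT, which is what 3 UMIs are worth. The 2 libraries shared 37 barcodes. Mature DCs made up 0.279% of the kept barcodes in MWA (exact binomial interval 0.185 to 0.403%) and 0.272% in MWA+TIGIT (0.180 to 0.396%), a difference of -0.0066 percentage points (-0.161 to 0.148). With fewer than 3 C1q UMIs allowed, 24 and 14 cells were left, at 0.239% and 0.141%, a difference of -0.0979 points (-0.231 to 0.0306). Among Cd3-negative barcodes alone the shares were 0.562% and 0.506%. For comparison, type 1 DCs, taken as cells with Xcr1 and Clec9a, were 39 cells (0.389%) in MWA and 15 cells (0.151%) in MWA+TIGIT, a difference of -0.237 points (-0.394 to -0.0882). Cells with at least 2 UMIs of Cd209a, a gene of type 2 and monocyte-derived DCs, were 20 and 15.

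Cells on both sides of the limits were counted. Of the members, 3 in MWA and 1 in MWA+TIGIT had a single Fscn1 UMI, and 1 in MWA had a single Ccr7 UMI. Just outside it were 63 and 44 Cd3-negative cells with Ccr7 but no Fscn1, of which 43 and 33 had a UMI of the B cell gene Cd79a. Cells with Fscn1 but no Ccr7 numbered 7 and 10. Cells with both genes and at least 1 Cd3 UMI but fewer than 10 C1q UMIs numbered 5 and 4. Another 3 and 2 Cd3-negative cells carried both genes but at least 66 C1q UMIs, against a highest value of 8 in any member. A caller of simulated doublets, with each barcode scored on 58 and 57 neighbors, marked 24 of 28 and 26 of 27 members. The median score was 0.397 and 0.421 in members and 0.103 and 0.123 in kept barcodes. Scored on 10 neighbors, a setting chosen after seeing the data, the caller marked 0 and 2. Why the settings differed was not tested.

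The label was checked on 2 markers that the rule had not used. Ccl22, the chemokine named above, stood at 843 CPM in MWA (131 UMIs, with a UMI in 22 of 28 cells) and 1705 CPM in MWA+TIGIT (327 UMIs, 25 of 27 cells), against 0.265 and 0.278 CPM in macrophages. Il12b stood at 1158 CPM (180 UMIs, 19 cells) and 777 CPM (149 UMIs, 15 cells), against 0.353 and 0.235 CPM in macrophages. The 2 genes of the rule stood at 2631 and 2753 CPM (Ccr7) and at 1383 and 1658 CPM (Fscn1), given here as a description only. Type 1 DCs came next for both genes in both libraries, at 28 and 323 CPM of Ccl22 and 95.3 and 141 CPM of Il12b. Cd209a cells held 8.51 and 26.1 CPM of Ccl22 and no UMI of Il12b, and T cells at most 3.60 CPM of either gene. The 9 genes of conventional DCs summed to 2586 and 1893 CPM, led by Id2 at 1614 and 866 CPM, with none at 0. Against type 1 DCs 1 of 7 was at least 4-fold higher in both libraries (Relb) and 1 lower (Cd24a). Against Cd209a cells 2 of 8 were higher (Relb and Id2) and 1 lower (Itgax). Against macrophages 3 of 4 were higher (Dpp4, Flt3 and Relb) and none lower. Flt3, the receptor of the DC growth factor FLT3L, stood at 193 and 104 CPM against 0.617 and 0.471 CPM in macrophages. Zbtb46, a transcription factor that marks conventional DCs, stood at 51.5 and 46.9 CPM (8 and 9 UMIs) against 0.265 and 0.257 CPM.

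**Figure D1:**
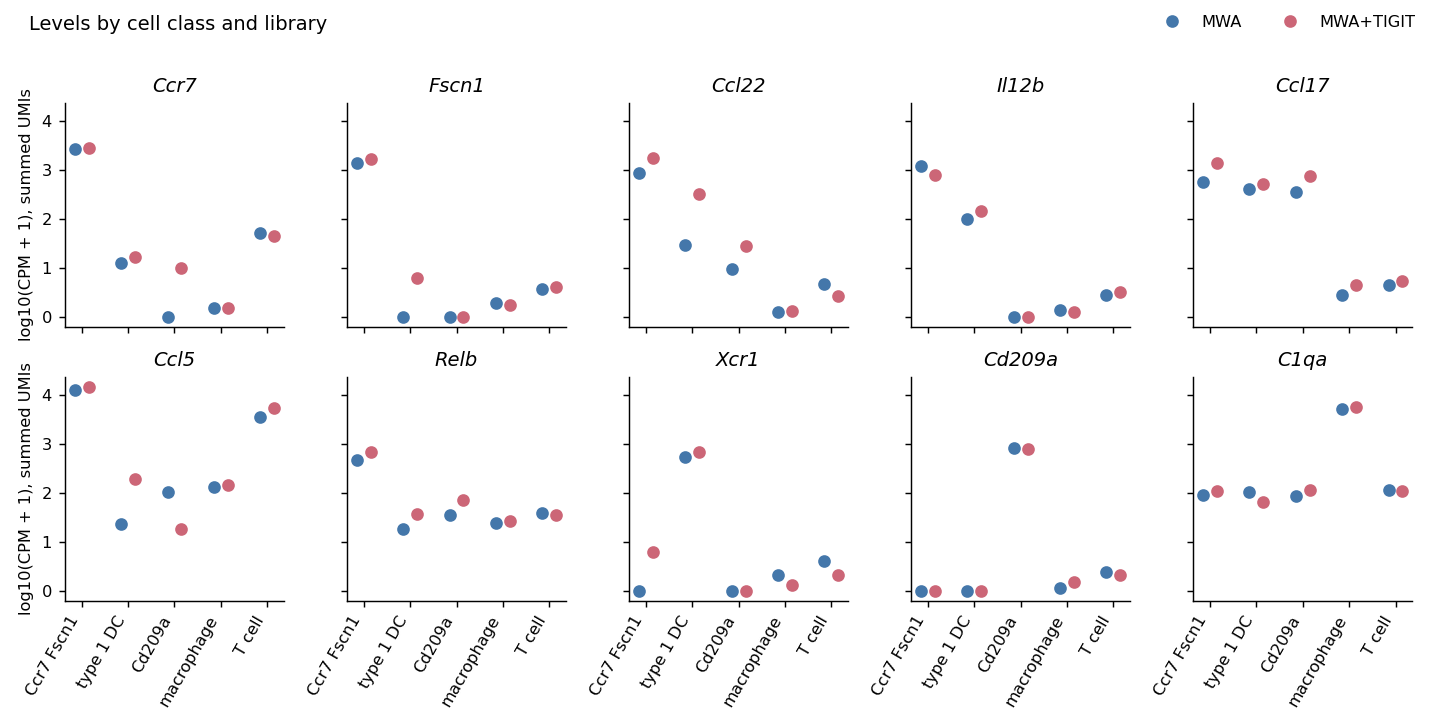
Levels of 10 genes in 5 cell classes (mature DCs are labelled Ccr7 Fscn1), as log10 of CPM + 1 over the summed UMIs of each class (y axis), with 1 point per library (blue, MWA; red, MWA+TIGIT). Ccl22, Il12b and Relb were highest in mature DCs, at 28 and 27 cells, and Xcr1 and Cd209a were at or near the level seen in T cells. The levels of Ccr7, Fscn1 and C1qa in mature DCs were set by the rule, as were those of Xcr1, Cd209a and C1qa in the classes chosen by them.

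Markers of several other cell types were at 0. No UMI came from any of the 7 neutrophil, 6 NK cell, 6 mast cell and basophil, or 6 tumor and stromal markers, nor from Trac, Cd209a or Siglech. Xcr1, which defines type 1 DCs, had 0 and 1 UMIs, and Clec9a, its companion marker, had 4 and 1. The 12 macrophage markers summed to 765 CPM in MWA and 933 CPM in MWA+TIGIT, led by Apoe at 418 and 443 CPM. T cells, which should not make them, held 867 and 911 CPM of the same list and 416 and 461 CPM of Apoe, and macrophages held 32140 and 36690 CPM. All 12 were at least 4-fold lower in mature DCs than in macrophages, which for C1qa, C1qb and C1qc follows from how both classes were chosen. The 10 T cell markers summed to 32.2 and 46.9 CPM. Cd3d, Cd3e and Cd3g were at 0 by the rule, and Cd4 and Trac were at 0 without being part of it. The 7 B cell markers summed to 25.7 and 5.21 CPM, with 5 at 0. The 10 type 2 DC markers summed to 1280 and 1564 CPM, with 3 at 0. Most of it was Ifi30, a thiol reductase of antigen processing, at 1010 and 1194 CPM. Cd209a cells held 4117 and 4232 CPM of the list, which includes Cd209a, by which they were chosen. The 8 plasmacytoid DC markers summed to 283 and 229 CPM, led by Bst2 at 244 and 162 CPM, with 5 at 0. The 8 monocyte markers summed to 463 and 657 CPM, led by Lyz2 at 334 and 443 CPM, with 1 at 0. T cells held 1802 and 2189 CPM of them, and whether T cells made these themselves was not tested. The median cell depth was 3519 and 3710 UMIs in T cells and 8586 and 10544 in macrophages.

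Next, mature DCs were set against type 1 DCs, Cd209a cells and macrophages of the same library. A gene counted as higher or lower where it differed at least 4-fold in the same direction in both libraries, with at least 50 CPM in 1 of the 2 classes of each. Against type 1 DCs, 169 of 2552 genes (6.62%) were higher and 125 (4.9%) lower. Against Cd209a cells the numbers were 151 (5.5%) and 181 (6.59%) of 2745, and against macrophages 229 (7.8%) and 308 (10.5%) of 2935. Of 2230 genes in all 3 comparisons, 69 (3.09%) were higher in every one, and 20 of the 69 belonged to the functional gene lists, which had 211 genes among the 2230. They include Ccl22, Ccl5, Il12b, Cd274, Cd200, Il4i1, Socs2, Stat4, Relb, Traf1, Birc2, Il15ra, Il2ra, Nr4a3 and Fabp5. Macrophages numbered 3805 and 4239 cells, so the counting intervals are widest against the small DC classes.

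Ccr7 and Fscn1 are among the 69 and among the highest genes below because the rule required them. The genes furthest above type 1 DCs were Fabp5, Ccr7, Samsn1, Fscn1, Tmem176a, Tmem176b, Ccl5, Stat4, Cd63 and Cacnb3. Fabp5, a fatty acid carrier, reached 2020 and 3942 CPM, against 8.41 and 15.6 CPM (3 UMIs each) in type 1 DCs, ratios of 240 (81.4 to 1171) and 253 (86.1 to 1227). Ccl5, a chemokine that attracts T cells, reached 12382 and 14299 CPM, 552 times (280 to 1280) and 74.3 times (53.7 to 106) the level of type 1 DCs. T cells, which also make it, held 3539 and 5361 CPM. Stat4, which transmits interleukin 12 and interferon signals, stood at 791 and 610 CPM against 5.61 and 10.4 CPM (2 UMIs each), ratios of 141 (38.2 to 1178) and 58.6 (15.9 to 490). At the other end were Ckb, Naaa, Ppt1, Unc119 and Xcr1. No UMI of Ckb, a creatine kinase, was found in either library. Xcr1, by which type 1 DCs were chosen, was at least 27.5-fold lower than in type 1 DCs in MWA. In MWA+TIGIT it was at a ratio of 0.00765 (0.000192 to 0.0434). Against macrophages the list was led by Ccr7, Scin, Il12b, Ccl22, Adam23, Cd200, Fscn1, Sema7a, Mreg and Strip2. Scin, which severs actin filaments, had 386 and 297 CPM against 0.0294 and 0.0642 CPM, and Mreg, a melanosome and organelle transport gene, had 122 and 125 CPM against 0.118 and 0.0856 CPM. Furthest below macrophages lay Pf4, Ccl12, Fcgr2b, C1qa, by which both classes were chosen, and Cx3cr1. Against Cd209a cells the 10 highest were Ccl5, Ccr7, Ccl22, Fscn1, Serpinb6b, Bcl2a1a, Il12b, Cd63, Zmynd15 and Cacnb3. The 5 lowest were Ly6a, Cfp, Cd209a, by which that class was chosen, Ckb and Ly6c2.

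Grouped by role, the migration and cytoskeleton list held 3 genes of 19 above type 1 DCs, 7 of 20 above Cd209a cells and 4 of 20 above macrophages, and none below any of them. Marcksl1, an actin regulator, and Tbc1d4, which controls vesicle traffic, were above all 3 classes, Tbc1d4 at 1910 and 1669 CPM against 5.08 and 6.53 CPM in macrophages. Of the chemokines, 3 of 15 were above macrophages (Ccl22, Ccl17 and Ccl5) and 10 below, among them the monocyte and macrophage chemokines Ccl2, Ccl3, Ccl4, Ccl7, Ccl8 and Ccl12. Against type 1 DCs 2 of 6 were above (Ccl22 and Ccl5) and 2 below (Cxcl9 and Ccl4). Against Cd209a cells 3 of 11 were above (Ccl22, Cxcl16 and Ccl5) and 3 below (Cxcl10, Ccl6 and Ccl4). Among cytokine receptors, 4 of 15 were above type 1 DCs, namely Il2ra, Il15ra, Il21r and Il7r, and none below. Against Cd209a cells 4 of 18 were above and 3 below (Il1r2, Il6ra and Crlf2), and against macrophages 4 of 19 were above and 2 below (Il6ra and Tgfbr2). Il7r, a receptor chain for interleukin 7 and TSLP, had 225 and 261 CPM, and no UMI in type 1 DCs, so it was at least 26.8-fold and at least 16.7-fold higher. Il15ra, which presents interleukin 15, had 148 and 146 CPM, against 4.73 and 4.84 CPM in macrophages.

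Costimulatory genes were above macrophages in 5 of 10 cases (Slamf7, Ly75, Icosl, Cd83 and Cd80) and below in 1. Against type 1 DCs only Cd80 of 10 was above and Cd84 below, and against Cd209a cells 2 of 9 were above (Ly75 and Icam1) and Cd48 below. Cd80, a ligand of CD28 and CTLA-4, had 142 and 183 CPM, against 7.91 and 5.65 CPM in macrophages and 11.2 and 26.0 CPM in type 1 DCs. Cd86, its relative, did not set mature DCs apart from type 1 DCs, at 232 and 214 CPM against 222 and 198 CPM, ratios of 1.05 (0.684 to 1.57) and 1.08 (0.678 to 1.73). Of the inhibitory ligands and enzymes, Il4i1, Cd200 and Cd274 were above all 3 classes. Cd274, which encodes PD-L1, had 244 and 292 CPM, 4.15 times (2.38 to 7.44) and 4.32 times (2.33 to 8.60) the level of type 1 DCs and 8.01 and 7.47 times that of macrophages. Cd200, whose product engages an inhibitory receptor on myeloid cells, had 431 and 417 CPM, against 16.8 and 15.6 CPM in type 1 DCs. Il4i1, an enzyme that degrades aromatic amino acids, had 354 and 563 CPM and no UMI in type 1 DCs of either library, so it was at least 42.1-fold and at least 36.1-fold higher.

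The NF-kB list had 7 of 22 genes above type 1 DCs, 6 of 22 above Cd209a cells and 10 of 21 above macrophages, and none below. Traf1, an adaptor of TNF receptors and itself an NF-kB target, had 515 CPM in MWA and 850 CPM in MWA+TIGIT, against 47.7 and 20.8 CPM in type 1 DCs and 7.20 and 7.49 CPM in macrophages. Relb, a subunit of the noncanonical pathway, had 457 and 688 CPM, 27.1 times (11.9 to 76.4) and 18.9 times (8.92 to 47.9) the level of type 1 DCs. Survival genes followed the same direction, with 2 of 14 above type 1 DCs, 7 of 14 above Cd209a cells and 7 of 15 above macrophages, and none below. Birc2, an inhibitor of apoptosis, was above all 3 classes, at 334 and 292 CPM, and Serpinb6b, a serpin protease inhibitor, had 1048 and 975 CPM against 0.941 and 0.963 CPM in macrophages. From the SOCS and STAT list, 4 of 10 genes were above type 1 DCs, 2 of 11 above Cd209a cells and 6 of 10 above macrophages, and none below. Socs2, a feedback inhibitor of cytokine signals, had 244 and 480 CPM against 4.17 and 5.78 CPM in macrophages.

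Of 15 uptake receptors, 12 were below macrophages, including the Fc receptors Fcgr2b, Fcgr3 and Fcgr4, the mannose receptor Mrc1 and the scavenger receptor Msr1. Only Ly75, an endocytic receptor known as DEC-205, was above, at 161 and 172 CPM against 0.265 and 0.214 CPM. Against Cd209a cells 8 of 12 uptake receptors were below, among them Cd209a, by which those cells were chosen, and 1, Ly75, above. Against type 1 DCs 1 of 5 was below (Cd36) and none above. In the lysosome list 2 of 17 genes were above type 1 DCs (Lamp1 and Cd63) and 1 below (Psap), and 1 was above Cd209a cells and 2 below, whereas 9 of 18 genes were below macrophages, with cathepsin B (Ctsb) at 161 and 193 CPM against 2013 and 2251 CPM, and 1 was above, the cathepsin inhibitor Cst3, at 21290 and 18664 CPM against 2596 and 2666 CPM. In the MHC class I list 2 of 21 genes were below type 1 DCs and none above, and 1 of 19 lay in each direction against macrophages. In the MHC class II list 2 of 12 genes were above macrophages and 3 below, 1 of 14 was above Cd209a cells and 4 below, and 3 of 14 were below type 1 DCs and 1, H2-Eb2, above. H2-Ab1, a class II beta chain, had 1319 and 1001 CPM, which was 4.66-fold and 7.20-fold lower than in type 1 DCs, and H2-DMb1, part of the peptide loader H2-DM, had 45.0 and 41.7 CPM against 653 and 786 CPM. The class II alpha chain H2-Aa, at 3814 and 2519 CPM, was 1.84-fold and 3.09-fold lower and thus under the 4-fold limit. Of the 11 type 1 DC markers compared, 9 were below type 1 DCs, among them Xcr1 and Clec9a, by which type 1 DCs were chosen. The other two were Irf8 and Batf3, transcription factors that type 1 DCs need, and Irf8 had 1241 and 949 CPM against 1556 and 1655 CPM in type 1 DCs.

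**Figure D2:**
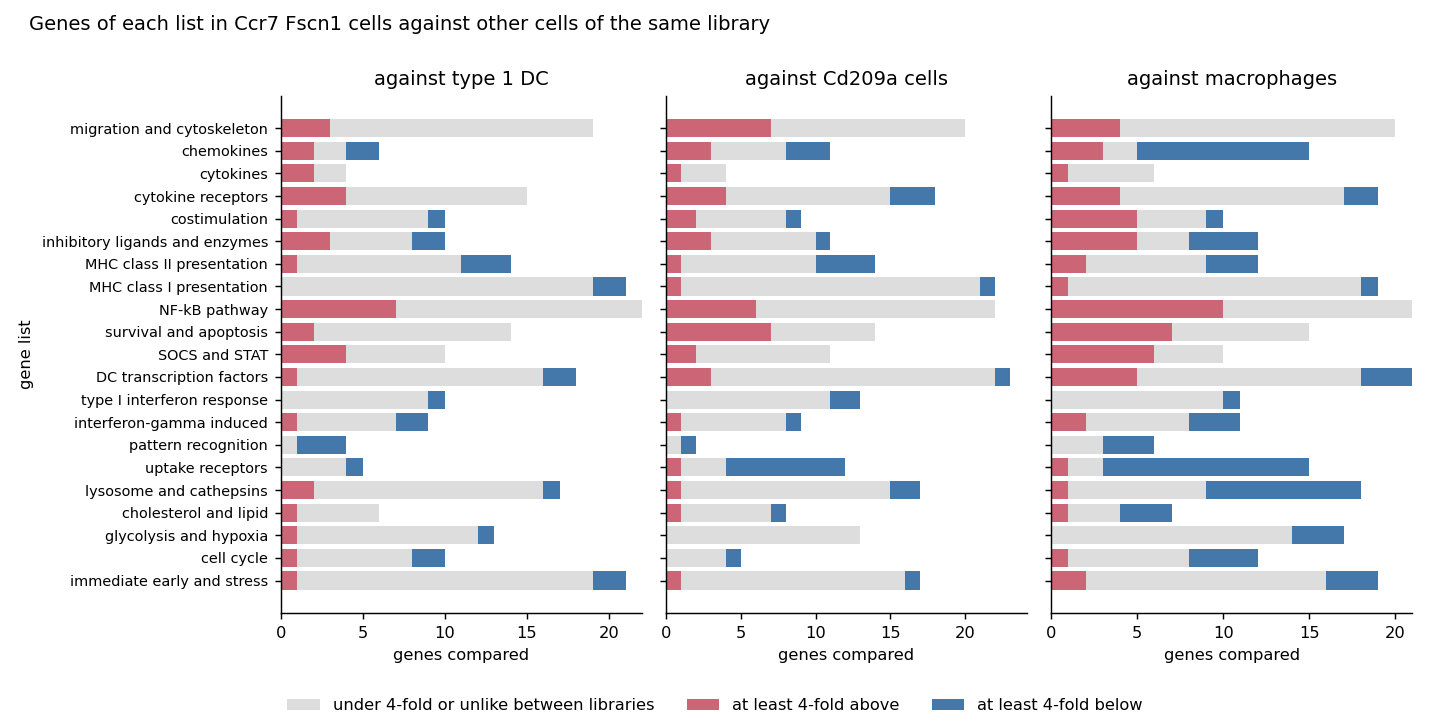
Number of genes compared in each functional gene list (x axis), split into those at least 4-fold above (red), at least 4-fold below (blue) and neither (grey) in mature DCs, against type 1 DCs, Cd209a cells and macrophages of the same library. No gene of the NF-kB, survival or SOCS and STAT lists was below any of the 3 classes, and 12 of 15 uptake receptors were below macrophages.

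The comparison of the MWA+TIGIT with the MWA library asked what blockade of TIGIT added to MWA. In mature DCs, 123 of the 2032 genes that reached 50 CPM in either library and 20 UMIs over both (6.05%) were at least 2-fold higher in MWA+TIGIT, and 80 (3.94%) at least 2-fold lower. The median log2 ratio of all these genes was 0.07, with 1105 above 0 and 927 below. From the functional lists together, 15 of 202 genes were higher and 6 lower, shares near those of all genes. The 15 were Ccl22, Ccl17, Il1b, Pdcd1lg2, Spi1, Adam8, Cflar, Ikbkb, Nfkbiz, Dusp2, Egr1, Ccnd2, Cd48, Tap2 and H2-M3, and the 6 were Nr4a2, Gbp4, Fosb, Dnajb1, Hspa1a and H2-DMb2. Of these, Fosb turned to a log2 ratio of 0.58 in cells with fewer than 3 C1q UMIs, and H2-DMb2 to 0.56 when the rule was applied to thinned counts. Of the macrophage markers 4 had enough UMIs, the complement genes C1qa, C1qb and C1qc, which the rule capped, and Apoe, at a log2 ratio of 0.08. C1qc had 8 UMIs in MWA and 21 in MWA+TIGIT, a log2 ratio of 1.09 (-0.14 to 2.47). Of the monocyte markers Plac8 and Lyz2 had enough UMIs, at 0.92 and 0.41. Of 5 conventional DC genes 2 were above 0 and 3 below, with a median of -0.89, and 1 passed 2-fold, Kit, a growth factor receptor, with 14 UMIs in MWA and 7 in MWA+TIGIT, a ratio of -1.30 (-2.85 to 0.10) that was -0.76 without the highest cells. Among 3 type 2 DC markers Tnip3, an inhibitor of NF-kB, passed 2-fold, at 1.22 (0.37 to 2.14). Their part in the other ratios was not tested.

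Both CCR4 chemokines were at a higher level in MWA+TIGIT, and 2 of the 5 chemokines with enough UMIs passed 2-fold. Ccl17 had 85 UMIs (547 CPM) in MWA and 265 UMIs (1382 CPM) in MWA+TIGIT, a log2 ratio of 1.34 (0.98 to 1.71), and was found in 19 cells of each library. The same ratio was 1.01 in macrophages, at 1.73 and 3.49 CPM, and Cd209a cells held 349 and 740 CPM. Ccl22 went from 843 to 1705 CPM, a log2 ratio of 1.02 (0.72 to 1.32), against 0.07 in macrophages. In type 1 DCs it had 10 UMIs (28 CPM) in MWA and 62 UMIs (323 CPM) in MWA+TIGIT, and in Cd209a cells 1 and 3 UMIs. The highest cell gave 11.5% and 19.9% of its UMIs, and without that cell of each library the ratio was 0.83. Cxcl16, the ligand of CXCR6 on T cells, with 765 and 1074 CPM, had a log2 ratio of 0.49 (0.16 to 0.83), and Ccl5 one of 0.21 (0.12 to 0.29), which fell to 0.05 without the highest cells, of which the one in MWA+TIGIT held 27.5% of its UMIs. Ccl22 and Ccl17 lie on the same strand of one stretch of chromosome 8, and their promoters are shown because they were the chemokines that passed 2-fold. The sequences are those of RefSeq on GRCm38.p6, both on the + strand, from 250 bases before to 50 after the transcription start, chr8:94745434-94745733 for Ccl22 and chr8:94810203-94810502 for Ccl17. Capitals mark a loose form of the NF-kB motif on either strand, which is GGG, any 5 bases and then CC, or in reverse GG, any 5 bases and then CCC.
Ccl22: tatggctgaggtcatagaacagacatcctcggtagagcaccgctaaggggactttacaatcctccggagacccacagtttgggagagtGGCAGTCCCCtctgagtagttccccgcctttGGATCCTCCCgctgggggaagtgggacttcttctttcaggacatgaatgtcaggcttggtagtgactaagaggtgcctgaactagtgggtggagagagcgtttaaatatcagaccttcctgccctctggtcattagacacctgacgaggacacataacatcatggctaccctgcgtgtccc
Ccl17: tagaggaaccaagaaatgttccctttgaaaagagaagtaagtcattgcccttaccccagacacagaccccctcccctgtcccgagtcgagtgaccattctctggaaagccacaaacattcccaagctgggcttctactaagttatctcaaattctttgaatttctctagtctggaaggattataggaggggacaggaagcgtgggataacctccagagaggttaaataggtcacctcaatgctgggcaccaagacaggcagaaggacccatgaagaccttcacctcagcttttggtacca
The Ccl22 promoter held 2 matches, which begin 162 and 131 bases before the start and read on the opposite strand, and the Ccl17 promoter none. Of all 32851 promoters of this length 50.8% held a match, as did 60.8% of the 79 promoters found for 57 of the 69 genes above all 3 classes, and 67.8% of the 2273 promoters found for 1792 of the 2230 genes compared.

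Of 8 inhibitory ligands and enzymes with enough UMIs, 1 passed 2-fold. Pdcd1lg2, which encodes the PD-1 ligand PD-L2, had 7 UMIs in 6 cells (45.0 CPM) in MWA and 33 UMIs in 15 cells (172 CPM) in MWA+TIGIT, a log2 ratio of 1.93 (0.73 to 3.36). It was 0.93 in macrophages, at 1.68 and 3.19 CPM. Cd274, with 38 UMIs in MWA and 56 in MWA+TIGIT, had a log2 ratio of 0.26 (-0.36 to 0.89), and Cd200, with 67 and 80, one of -0.05 (-0.53 to 0.44), both with intervals that hold 0. Il4i1, at 354 CPM in MWA and 563 in MWA+TIGIT, had a ratio of 0.67 (0.19 to 1.17). The TIGIT ligand Pvr had 8 UMIs in 8 cells in MWA and 6 UMIs in 5 cells in MWA+TIGIT, and Nectin2 had 0 and 2. At 51.5 and 31.3 CPM, Pvr was at 2.34 and 1.60 times the level of macrophages, and a difference between the groups was not detectable at this depth. Of 9 costimulatory genes only Cd48, a ligand of the receptor 2B4, passed 2-fold, from 6 to 15 UMIs, with an interval of its log2 ratio (-0.43 to 2.67) that holds 0. Cd40, Cd80, Cd83 and Cd86 had log2 ratios of 0.32, 0.37, -0.12 and -0.11, and all 4 intervals hold 0. Tnfsf9, the ligand of 4-1BB, had no UMI in MWA and 17 UMIs in 8 cells in MWA+TIGIT, at least 4.59-fold higher, but lay under the limit of 20 UMIs and was not counted.

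Il12b was lower in MWA+TIGIT by less than 2-fold, with 180 UMIs against 149, at a log2 ratio of -0.58 (-0.90 to -0.25), and -0.82 without the highest cells. No UMI of Il12a, the partner chain of p40 in interleukin 12, was found in either library. Il1b, an inflammatory cytokine, had 41 UMIs (264 CPM) in 12 cells of MWA and 118 UMIs (615 CPM) in 11 cells of MWA+TIGIT, a log2 ratio of 1.22 (0.70 to 1.77), against -0.26 in macrophages. It turned to -4.0 when barcodes over 5000 UMIs were left out, with 9 and 6 members. The MHC class II list had a median log2 ratio of -0.36, with 3 of 12 genes above 0 and 9 below, beside 0.07 for all genes. H2-Eb1, a class II beta chain, had 3608 CPM in 24 cells of MWA and 2169 CPM in 15 cells of MWA+TIGIT, a log2 ratio of -0.73 (-0.92 to -0.55), and H2-Aa one of -0.60 (-0.77 to -0.42), whereas in macrophages they were 0.05 and 0.08. Cd74, the class II invariant chain, had one of -0.13 (-0.26 to 0.01). In the MHC class I list 15 of 20 genes were above 0, with a median of 0.28.

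In the list of DC transcription factors 4 of 14 genes were above 0 and 10 below. Spi1, the myeloid factor PU.1, went from 109 to 224 CPM, a log2 ratio of 1.04 (0.20 to 1.94), and Nr4a2, an orphan nuclear receptor, from 35 UMIs in 13 cells to 16 UMIs in 6, a log2 ratio of -1.43 (-2.38 to -0.54). Id2, a repressor that DCs need, went from 1614 to 866 CPM, a log2 ratio of -0.90 (-1.19 to -0.61), and Irf8 one of -0.39 (-0.69 to -0.09). The NF-kB list had a median of 0.32, with 14 of 21 genes above 0, and 2 passed 2-fold, Ikbkb, a kinase of the canonical pathway, and Nfkbiz, which turned to -0.10 without barcodes over 5000 UMIs. Traf1 and Relb had log2 ratios of 0.72 (0.33 to 1.13) and 0.59 (0.17 to 1.03). Socs2 had 0.97 (0.41 to 1.56), and Fabp5 0.97 (0.77 to 1.16), both just under 2-fold. All 6 type I interferon genes with enough UMIs were below 0, with a median of -0.40, none of them by 2-fold. Gbp4, a GTPase induced by interferon gamma, had 30 UMIs in 6 cells of MWA and 6 UMIs in 5 cells of MWA+TIGIT, a log2 ratio of -2.62 (-4.18 to -1.34).

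**Figure D3:**
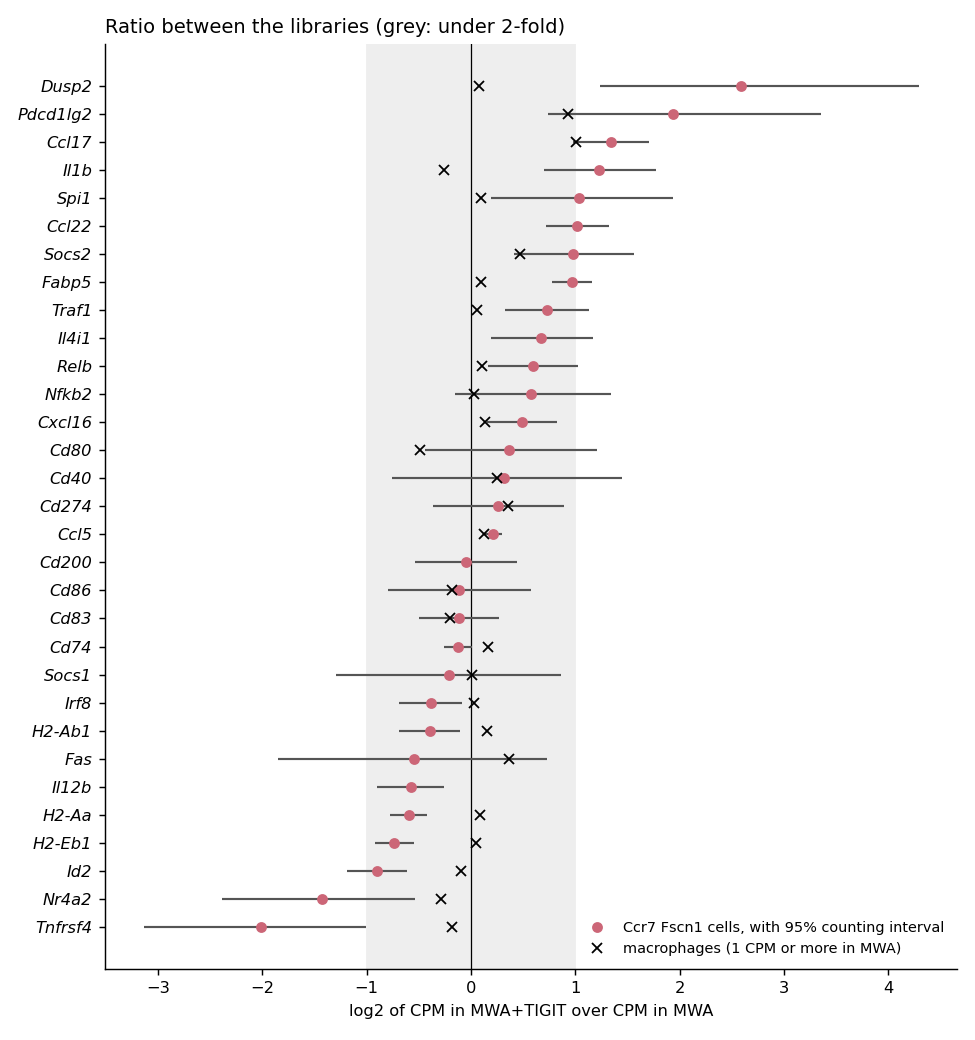
Log2 of the level in MWA+TIGIT over that in MWA (x axis) for genes of the functional lists and Tnfrsf4, in mature DCs (Ccr7 Fscn1 cells) (red, with 95% counting intervals) and, where at least 1 CPM was found in MWA, in macrophages (crosses). Dusp2, Pdcd1lg2, Ccl17, Il1b, Spi1 and Ccl22 lay beyond 2-fold on the right, and Nr4a2 and Tnfrsf4 on the left.

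Over all genes the 10 highest ratios belonged to Dennd5b, Wfdc17, Egr1, Dusp2, Alcam, Fdps, Psmd13, Rbm42, Mydgf and Ddx3x, and the 10 lowest to Hspa1a, Npr1, Gbp4, Hist1h2bc, Zfp622, Laptm4b, Tnfrsf4, Frmd4a, H1f0 and Dnajb1. Single cells held most of the UMIs of several of them. One cell held 93.1% of the 29 Dennd5b UMIs in MWA+TIGIT, against 1 UMI in MWA. One held 63.3% of the 49 Wfdc17 UMIs, though the log2 ratio was 3.73 with and 3.86 without the highest cells. One held 87.5% of the 24 Hspa1a UMIs in MWA, against none in MWA+TIGIT. Others were spread over more cells. Dusp2, a MAP kinase phosphatase, had 5 UMIs in 4 cells of MWA and 37 UMIs in 13 cells of MWA+TIGIT, a log2 ratio of 2.58 (1.23 to 4.29). Mydgf, a secreted growth factor, had 4 UMIs in 4 cells and 21 UMIs in 17, a log2 ratio of 2.09 (0.52 to 4.09). On the other side Tnfrsf4, which encodes the costimulatory receptor OX40, had 36 UMIs in 11 cells (232 CPM) and 11 UMIs in 7 cells (57.4 CPM), a log2 ratio of -2.01 (-3.14 to -1.01). T cells, which make much of it, held 356 and 360 CPM. With the highest cell of each library left out for each gene, an alternative chosen after seeing the data, 115 of the 123 higher and 69 of the 80 lower genes kept their call. The numbers called also rose, to 165 higher and 91 lower.

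With each cell thinned to 2000 UMIs, which left out 1 cell of MWA, Ccl22 was found in 17 of 27 cells (63.0%, 42.4 to 80.6%) of MWA and in 20 of 27 (74.1%, 53.7 to 88.9%) of MWA+TIGIT. For Il12b these were 17 cells (63.0%, 42.4 to 80.6%) and 9 cells (33.3%, 16.5 to 54.0%), and unthinned 67.9% and 55.6%. Thinned to 1000 UMIs, they were 44.4% and 40.7%. Each thinning was a random draw, and the share in MWA+TIGIT was higher at 1000 than at 2000 UMIs. In macrophages, which should lack both genes, the thinned shares were 0.135% and 0.0967% for Ccl22 and 0.0271% and 0.0967% for Il12b. Cd274 was found in 29.6% and 44.4% of thinned cells, against 6.12% and 8.00% of macrophages. Ccl17 was found in 44.4% and 51.9%, against 0.325% and 0.218%. In mature DCs the intervals of each of these 4 genes overlapped between the libraries.

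Members also differed among themselves within a library. Ccl5 ranged from 0 to 352 UMIs per cell in MWA and from 0 to 755 in MWA+TIGIT, with medians of 39 and 71, and Fabp5 from 0 to 68 and from 0 to 175, with medians of 4.5 and 14. Ccl17 and Ccl22 were found together in 17 of 28 and 19 of 27 cells, with 2 and 0 cells that had Ccl17 alone. Their levels over cells had Spearman coefficients of 0.36 (28 cells) and 0.56 (27 cells), a description of cells that share a library and differ in depth. Il12b and Ccl22 were found together in 17 and 13 cells, and in MWA+TIGIT 12 cells had Ccl22 without Il12b.

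Cells with and without a UMI of Il12b were then set against each other, a split that was made after the values over cells had been seen and that has no test. They were 19 and 9 cells in MWA, with median depths of 5685 and 3610 UMIs, and 15 and 12 cells in MWA+TIGIT, with 7776 and 5550, so that the cells without were the shallower in both. Of 1670 genes with at least 10 UMIs per library, Il12b left aside, 44 (2.63%) were at least 2-fold higher in the cells with Il12b in both libraries and 20 (1.2%) at least 2-fold lower. The genes named next were chosen for their counts after these were seen. Rnaset2a, a secreted ribonuclease with a close copy (Rnaset2b) that could share its reads, had 1647 CPM in the cells with and 740 CPM in the cells without Il12b in MWA, and 1015 and 375 CPM in MWA+TIGIT, log2 ratios of 1.15 (0.57 to 1.79) and 1.44 (0.81 to 2.12). Pmvk, an enzyme of the mevalonate pathway, had 43 UMIs against none in MWA and 89 against 6 in MWA+TIGIT. Ncoa7, a nuclear receptor coactivator, had 98 UMIs against 3 and 70 against 18. On the other side Gpr183, the oxysterol receptor that guides DCs and B cells, had 3 UMIs in the cells with and 14 in the cells without Il12b in MWA, and 15 and 26 in MWA+TIGIT, log2 ratios of -3.93 (-6.37 to -2.09) and -1.70 (-2.72 to -0.73). Irf8 was higher in the cells with Il12b in MWA, at 1454 against 548 CPM, and not in MWA+TIGIT, at 959 against 930 CPM.

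**Figure D4:**
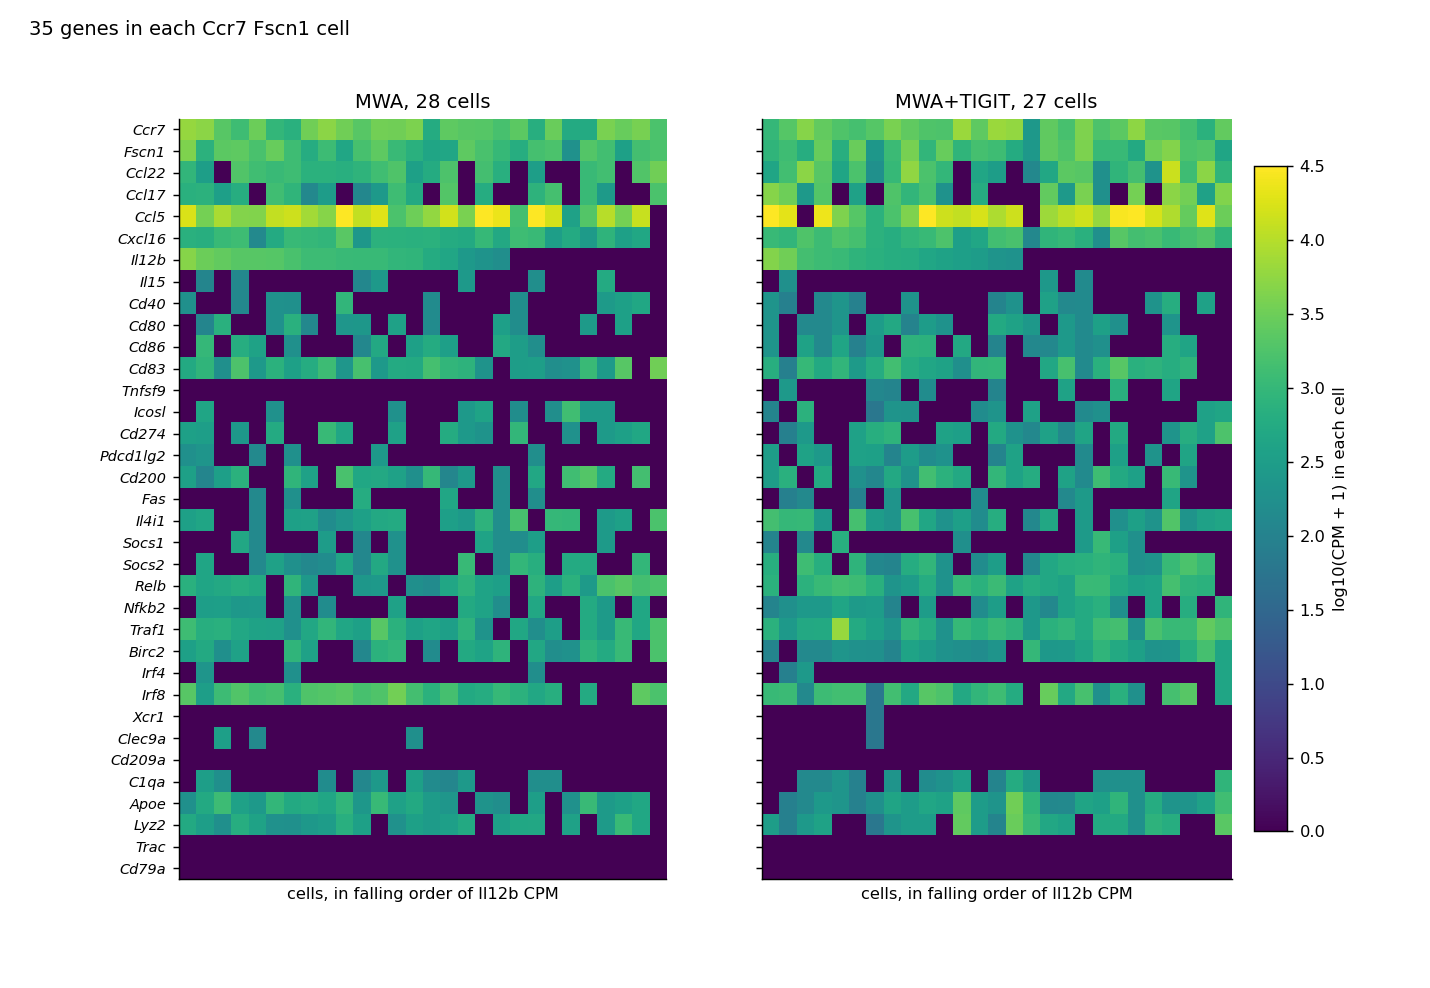
Each of the 28 MWA and 27 MWA+TIGIT mature DCs (columns, in falling order of Il12b) for 35 genes (rows), as log10 of the cell's own CPM + 1 (color). Il12b was found in 19 and 15 cells, Tnfsf9 in 0 and 8, Ccl5 in 27 and 25, Xcr1 in 0 and 1, and Cd209a, Trac and Cd79a in none.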

How the data were processed

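The authors aligned the reads to mm10 (GRCm38) with Cell Ranger, and deposited UMI counts per gene and barcode for 32285 genes, not normalized. The matrix header names version 4.0.0 and the submitters' processing notes name 6.1.1. The 2 libraries held 66152465 and 78751205 UMIs in 10217 and 10190 barcodes. The study removed doublets with DoubletFinder and used Seurat clusters, and neither was used here. Of the barcodes, 179 and 276 were over the mitochondrial limit. The members, gene lists and comparisons were chosen with earlier results of these data known. Type 1 DCs, Cd209a cells and T cells (at least 2 Cd3 UMIs) had fewer than 10 C1q UMIs, and macrophages at least 10. Counts were summed per class and library in pandas 2.3.3 and numpy 2.4.6 (Python 3.11.15). Intervals were computed with scipy 1.17.1. The call between the groups and its interval were tested on simulated counts, which held no spread between cells. The doublet caller was tested on added sums of 2 barcodes. Shares have Clopper-Pearson intervals, their differences Newcombe's combination, and log2 ratios exact conditional binomial intervals. A count of 0 was replaced by 3 UMIs in a library, and the ratio is then a bound. No ratio was formed where both counts were at most 3. Named genes were the 4 markers, genes of the lists, the 10 highest and 10 lowest between groups, and the 10 highest and 5 lowest against each class, without mitochondrial, ribosomal, immunoglobulin, T cell receptor and unnamed genes. TMM factors came from edgeR 4.0.16 in R 4.3.3. Each gene was located with GENCODE M21.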

Additional observations from a re-analysis of the deposited data

Results flagged for a closer look

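When the members of each library were split by whether a UMI of Il12b was found, 6 listed genes moved in opposite directions in the 2 libraries, each by at least 2-fold. H2-Aa was lower in the cells with Il12b in MWA, at a log2 ratio of -1.13, and higher in MWA+TIGIT, at 1.34. H2-Eb1 followed the same pattern, at -1.27 and 1.52, and so did Il1b, at -2.81 and 1.14. Fosb, an immediate early gene, was higher in the cells with Il12b in MWA, at 1.75, and lower in MWA+TIGIT, at -2.17. Il21r had ratios of 2.05 and -1.74, and Hsp90aa1, a chaperone gene, of 1.64 and -1.10. With 1 library per group these differences were not tested. Neither the number of list genes compared in this split nor the same count over all 1670 genes compared is given here. Whether 6 genes are more than the spread between cells alone would give was therefore not tested. The highest single cell held 14.7% and 20.3% of the H2-Aa UMIs in MWA and MWA+TIGIT, 26.8% and 27.1% of the Il1b UMIs, 41.7% and 29.4% of the Fosb UMIs and 37.5% and 10.0% of the Hsp90aa1 UMIs. Its part in the result was not tested.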

How the results depend on the processing

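Leaving out the doublet calls on 58 and 57 neighbors left 4 and 1 members, shares of 0.0433% and 0.0110%. Between the groups 7 of 120 genes were then higher and 63 lower, with a median log2 ratio of -1.16 over all, and 5 of 20 list genes higher and 4 lower. Higher and lower genes were 57 and 1 of 572 against type 1 DCs, 33 and 0 of 517 against Cd209a cells, and 89 and 6 of 613 against macrophages. Without barcodes over 5000 UMIs, a limit in the study's methods, 9 and 6 members were left. Their shares were 0.205% in MWA and 0.159% in MWA+TIGIT, a difference of -0.0457 points (-0.255 to 0.172). Then 45 of 337 genes were higher and 25 lower between the groups. Higher and lower genes were 0 and 16 of 205 against type 1 DCs, 21 and 25 of 620 against Cd209a cells, and 154 and 73 of 2061 against macrophages. With fewer than 3 C1q UMIs the shares were 0.239% and 0.141%. With no minimum level, 889 genes were higher and 613 lower between the groups, and 496 higher against macrophages. With at least 60 UMIs, 21 were higher and 12 lower. A rule applied to counts thinned to 2000 gave 71 higher and 122 lower of 2382 genes against Cd209a cells. No minimum level left 5315 genes between the groups and 7642 against macrophages, and at least 60 UMIs left 690. The other causes were not tested.

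Signs changed for C1qc, to -0.25, and Fosb, to 0.58, with fewer than 3 C1q UMIs, for Il1b, to -4.0, and Nfkbiz, to -0.10, without barcodes over 5000 UMIs, for H2-DMb2, to 0.56, under the thinned rule, and for Ly6a against Cd209a cells, to 0.19, without doublet calls. Of the other values for single genes between the groups, 2382 stayed within the counting interval of the reported value and 219 left it. These totals pool all settings. Leaving out members with Cd79a or S100a8 and S100a9 removed no cell, so its 238 values had to stay. TMM factors used the same cells, and 237 stayed. Without doublet calls 10 stayed and 55 left, and without barcodes over 5000 UMIs 75 stayed and 88 left. With fewer than 3 C1q UMIs 197 stayed and 38 left, and under the thinned rule 219 stayed and 17 left. Scaling by TMM factors gave 101 higher and 83 lower genes, and means of the cells' own CPM 176 and 79. The doublet calls on 10 neighbors, a setting chosen after seeing the data, left 28 and 25 members. No paired analysis was possible because each group has 1 library, and for the same reason no library could be left out. The 28 and 27 cells set the depth, at which a gene under 20 UMIs was not compared.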
